A study of Mus musculus with 1479 samples.

Results

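The genes described here encode 10 components of the Notch pathway, the receptors Notch1, Notch2, Notch3 and Notch4, the ligands Jag1 and Dll4, and the transcriptional repressors Heyl, Hey1, Hey2 and Hes1. They were taken by symbol from a table of 46517 gene rows, in which Ensembl identifiers were matched to GENCODE M21, and all 10 had reads. The table holds 1479 bladder cells of male mice, aged 10 to 20 weeks, each sequenced on its own with Smart-seq2, a full-length method that counts reads and not molecules. The cells carry 11 cluster labels and came from 5 mouse lines. Acta2GFP (8.72% of cells), Cspg4dsRED (13.7%) and PdgfrbGFP (54.8%) are transgenic lines in which a fluorescent protein is driven by regulatory sequence of the named gene, PdgfraGFP (9.94%) carries a nuclear GFP in the Pdgfra locus, and C57BL6 (12.8%) has no reporter. Per the study's methods, cells positive for a reporter or for a PDGF receptor antibody were sorted, CD31-positive cells were excluded, and strains were sometimes combined. No treatment was given to any group. The labels name no animal, and line, sort and plate coincide in large part, so the line served as the replicate and p-values measure only the spread between lines.

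The cells of cluster 10, namely 65 from Cspg4dsRED, 45 from PdgfrbGFP, 12 from Acta2GFP and 3 from C57BL6, were set against the 1354 cells of the other 10 clusters, the fibroblast clusters. All 10 mural markers had a mean level of 10 or more in cluster 10, with Acta2 the highest, and their summed level was 10469 ± 1647 (SD, n = 4 lines). It was 198.3 ± 29.7 (n = 5 lines) over the other clusters, where the 8 fibroblast markers summed to 17679 ± 2722 against 1306 ± 759 in cluster 10. Mural markers thus stood out in cluster 10 and fibroblast markers elsewhere. To obtain a level, each cell was scaled to 500000 endogenous reads, and the mean was taken first within a line and next among the lines that gave at least 3 cells. Total reads per cell ran from 50276 to 1446059 with a median of 214893, and the median was 130406 in cluster 10 and 225774 in the fibroblast clusters. No PdgfraGFP cell fell in cluster 10.

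Notch receptors are single-pass membrane proteins that bind Delta and Jagged ligands on a neighbouring cell. Binding is followed by cleavage by ADAM proteases and by the gamma-secretase complex, and the freed intracellular domain joins the DNA-binding protein RBPJ to switch on genes of the Hes and Hey families. In blood vessels Notch3 is the receptor of smooth muscle cells and pericytes, Jag1 is a ligand of endothelial and smooth muscle cells, and Dll4 and Notch4 are known from endothelial cells.

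On GRCm38 the receptor gene Notch3 (ENSMUSG00000038146, chr17:32120820-32166852) and the ligand gene Jag1 (ENSMUSG00000027276, chr2:137081456-137116644) lie on the minus strand, as does the target gene Hey2 (ENSMUSG00000019789, chr10:30832359-30842801). Hes1 (ENSMUSG00000022528, chr16:30064384-30067796) and Heyl (ENSMUSG00000032744, chr4:123233556-123249875) lie on the plus strand. RefSeq start-site windows, from 250 bases before to 50 bases after the start on GRCm38.p6, were at hand for 7 of the 10 genes, all but Heyl, Hey1 and Hes1. They were searched on both strands for TGGGAA, the core of the RBPJ binding motif, and its reverse complement TTCCCA. The Hey2 window (chr10:30842734-30843033, minus strand) held 2 matches, 1 of which began 3 bases before the start and the other further upstream. The windows of Notch1, Notch2, Notch3, Notch4, Jag1 and Dll4 held none. Of all 32851 windows, 25.6% held at least 1 match and 3.79% held 2 or more. The windows of Hey2, Notch3 (chr17:32166841-32167140, minus strand) and Jag1 (chr2:137116471-137116770, minus strand) are shown 5′ to 3′ because these genes differed most in level between cluster 10 and the fibroblast clusters, with the matches in capitals.
Hey2: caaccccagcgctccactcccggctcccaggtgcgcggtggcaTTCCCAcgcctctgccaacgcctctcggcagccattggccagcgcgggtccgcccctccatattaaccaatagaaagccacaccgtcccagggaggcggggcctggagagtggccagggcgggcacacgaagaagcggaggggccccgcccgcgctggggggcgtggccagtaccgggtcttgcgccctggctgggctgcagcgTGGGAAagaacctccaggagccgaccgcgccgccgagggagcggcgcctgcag
Notch3: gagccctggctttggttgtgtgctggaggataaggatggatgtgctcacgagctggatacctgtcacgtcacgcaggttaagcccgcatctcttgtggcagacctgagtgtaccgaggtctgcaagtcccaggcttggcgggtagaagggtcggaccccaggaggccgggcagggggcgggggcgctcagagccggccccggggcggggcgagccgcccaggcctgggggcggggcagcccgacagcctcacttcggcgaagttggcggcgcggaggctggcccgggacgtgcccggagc
Jag1: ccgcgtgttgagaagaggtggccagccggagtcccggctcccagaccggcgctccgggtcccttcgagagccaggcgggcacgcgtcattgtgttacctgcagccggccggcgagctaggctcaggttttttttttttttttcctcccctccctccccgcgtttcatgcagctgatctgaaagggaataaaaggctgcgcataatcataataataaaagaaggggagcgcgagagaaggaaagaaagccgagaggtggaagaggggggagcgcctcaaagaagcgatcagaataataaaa
A match is a run of letters and was not tested as a binding site.

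Across the clusters, 8 of the 10 genes had their highest mean level in cluster 10, and the exceptions were Notch2 and Notch4, which were highest in cluster 8. Of all 16092 genes tested, 18.2% were highest in cluster 10. The 8 include Dll4, whose level rested on 1 cell, and Hey1, which was at 0 in 1 line. For Notch3, Jag1 and Hey2 the lowest cluster 10 line lay above the highest of all 39 groups of line and fibroblast cluster, as it did for 1.26% of all genes tested. The line ranges of cluster 10 overlapped those of the next cluster in order for the other 5. Below cluster 10, neighbouring clusters overlapped in their line ranges for every gene, with the exception of Hes1 in cluster 4, whose 2 lines lay above both lines of cluster 9.

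**Figure D1:**
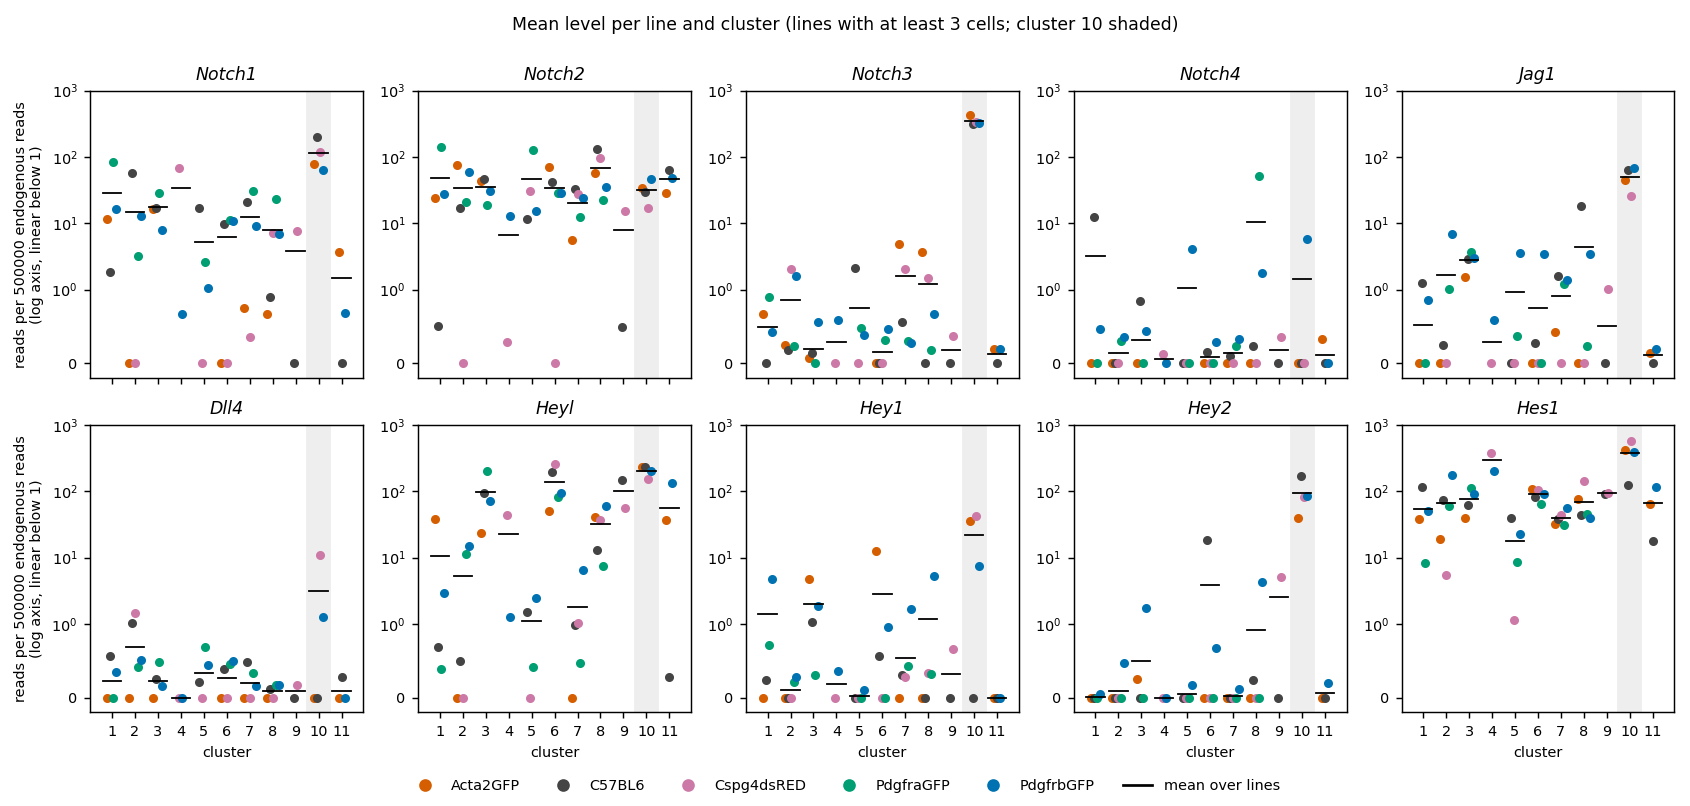
Mean level (reads per 500000 endogenous reads, log axis that is linear below 1) of each gene by cluster, with 1 point per line and a bar at the mean over lines. Cluster 10 is shaded. Its lowest Notch3 point is at 316.2 and no other cluster has one above 4.93, while the Notch2 points of cluster 10 lie among those of the other clusters.

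Cluster 10 was compared with the fibroblast clusters of the same 4 lines, to ask which genes of the pathway set mural cells apart from fibroblasts. Of the 10 genes, Notch3, Hey2, Jag1 and Hes1 were called higher (edgeR quasi-likelihood test on reads summed per line with the line as a block, adjusted p under 0.05 and log2 fold change of at least 2). Of the 16092 genes tested, 2.17% were called higher and 4.02% lower, so 35.1% of the calls were higher. With the median gene set to 0, 69.02% of the calls were higher. The median log2 fold change was 2.51 over the 10 genes, all of which passed the filter on low counts, and -0.93 over all genes tested. The clusters were defined by the study from the same expression values, so the test states how far a difference repeats over lines.

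Notch3 had the largest difference of the receptors. Its level was 434.0 in Acta2GFP, 316.2 in C57BL6, 337.6 in Cspg4dsRED and 325.2 in PdgfrbGFP cells of cluster 10, against 0.293 to 0.865 in the fibroblast cells of the 5 lines. The cluster 10 lines stayed within a narrow range and none came near a fibroblast value. The log2 fold change was 9.14 ± 0.76 (SE, edgeR adjusted p = 1.37e-07), and over the 12 alternatives it ran from 8.95 to 11.83 and was called in each. After every cell was thinned to 50000 endogenous reads, 83.2% of cluster 10 cells had a Notch3 read (95% Clopper-Pearson interval 75.5% to 89.3%) and 46 of 1348 fibroblast cells did (3.41%, 2.51% to 4.53%). Before thinning these shares were 86.4% and 13.1%. None of the 1348 fibroblast cells had 10 or more thinned reads, against 62.4% of cluster 10 cells. A count of 0 allows a share of up to 0.223% when 3 counts are set against the total, and of up to 0.273% by the Clopper-Pearson limit. Intervals and limits of this kind cover counting error only, since reads copied by PCR are not independent molecules.

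Notch1, the receptor best known from T cells and endothelium, was also higher in all 4 lines but missed the threshold. Its cluster 10 levels were 77.6 in Acta2GFP, 199.8 in C57BL6, 120.8 in Cspg4dsRED and 64.6 in PdgfrbGFP, and the fibroblast levels lay between 7.30 and 18.2. The line values did not overlap, with cluster 10 the higher, which held for 4.01% of all genes tested, and the log2 fold change was 2.82 ± 0.86 (SE, edgeR adjusted p = 0.0523). It passed under 7 of the 12 alternatives, among them the fit without C57BL6 (adjusted p = 0.0143), whose cluster 10 value rests on 3 cells. Without one of the other lines the adjusted p was 0.109 to 0.262. A few cells carried much of the level, with 51.5% of it in 5 cells. Exons of Notch1 overlap the opposite-strand transcripts 0610009E02Rik over 1068 bases and Gm13568 over 414, and those of Notch3 overlap Gm17276 over 488. Those of Notch2 share 541 bases with Gm42820 on the same strand. Reads in the shared bases of such pairs cannot be told apart here. The sources used do not give the strand setting of the counting, and no setting would separate a pair on the same strand.

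Notch2 levels overlapped between cluster 10 and the fibroblast clusters. It measured 34.2, 29.8, 17.1 and 46.3 in the Acta2GFP, C57BL6, Cspg4dsRED and PdgfrbGFP cells of cluster 10, and 22.1 to 43.8 in the fibroblasts of the 5 lines. Its log2 fold change was 0.14 ± 0.89 (SE, edgeR adjusted p = 0.959), with a sign that turned under 4 alternatives. Over all thinned fibroblasts Notch2 was read in 43.1% of cells and Notch1 in 16.9%, but the lines differed. The Notch2 and Notch1 shares were 56.96% and 15.2% in PdgfrbGFP, which gave most of the cells, 33.3% and 11.97% in Acta2GFP, 32.6% and 25.7% in C57BL6, 21.1% and 20.4% in PdgfraGFP, and 11.9% and 14.8% in Cspg4dsRED. The intervals of the 2 shares overlapped in the last 3 of these lines. Per kilobase of exon and 1000000 endogenous reads, receptor levels in fibroblasts were 6.41 ± 1.63 for Notch2, 1.88 ± 0.69 for Notch1, 0.437 ± 0.691 for Notch4 and 0.129 ± 0.056 for Notch3 (SD, n = 5 lines). In cluster 10 the order of these length-scaled levels was Notch3 at 87.3 ± 13.5, Notch1 at 16.3 ± 8.6, Notch2 at 5.90 ± 2.24 and Notch4 at 0.357 ± 0.713 (n = 4).

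Notch4, named for endothelial cells, was near 0 in most cells and its means rested on single cells. In cluster 10 it was at 0 in Acta2GFP, C57BL6 and Cspg4dsRED and at 5.75 in PdgfrbGFP. Its highest group was the PdgfraGFP cells of cluster 8, at 51.1, and 1 cell at 970.4 held 81.8% of the level of cluster 8. That cell had a thinned read of 1 of the 10 endothelial markers and no Cdh5 read. For cluster 10 the log2 fold change was -1.29 ± 2.24 (SE, edgeR adjusted p = 0.822).

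Of the ligands, Jag1 was higher in cluster 10. Its level was 44.7 in Acta2GFP, 62.9 in C57BL6, 25.4 in Cspg4dsRED and 67.4 in PdgfrbGFP, against 0.576 to 3.29 in the fibroblasts of the 5 lines. All 4 lines lay above the highest fibroblast group, the 18 C57BL6 cells of cluster 8 at 18.4, where 1 cell reached 321.3. The log2 fold change was 4.79 ± 1.22 (SE, edgeR adjusted p = 0.0222). The call was lost without Acta2GFP (adjusted p = 0.0995), without Cspg4dsRED (0.127) and without PdgfrbGFP (0.170), with log2 fold changes from 4.51 to 4.77. Jag1 was read in 33.6% of thinned cluster 10 cells (25.4% to 42.6%) and 6.31% of fibroblasts (5.07% to 7.74%). Between lines the cluster 10 share was 53.3% in PdgfrbGFP (37.9% to 68.3%, 24 of 45 cells) and 21.5% in Cspg4dsRED (12.3% to 33.5%, 14 of 65), which differ also in plate. Within PdgfrbGFP the mean Jag1 level of cluster 10 cells was 116.1 on plate bladder_074s (4 cells), 9.26 on bladder_515s (21 cells) and 118.8 on bladder_881s (20 cells).

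Dll4, the Delta ligand of sprouting endothelium, had 347 reads in all. In cluster 10 it was at 0 in Acta2GFP and C57BL6, 11.1 in Cspg4dsRED and 1.26 in PdgfrbGFP. A single Cspg4dsRED cell of plate bladder_689s, at 712.6, held 91.6% of the level of the cluster. That cell had a thinned read of 8 of the 10 endothelial markers, with Pecam1, which encodes CD31, at 282.6 and Cdh5 at 12.3. The log2 fold change was 2.65 ± 2.03 (SE, edgeR adjusted p = 0.520). Over cluster 10 the 10 endothelial markers summed to 88.6 ± 98.4 (n = 4 lines), from 13.9 in Acta2GFP to 232.1 in C57BL6, where Emcn was at 216.3. By mean over lines, Pecam1 was at 12.8 (9.23 in fibroblasts), Cldn5 at 9.98 (1.93), Egfl7 at 5.98 (2.08) and Tie1 at 1.88 (0.994), whereas Tek was at 1.15 (30.96), and Cdh5, Kdr, Flt1 and Erg were under 1. In the fibroblast clusters the sum was 60.6 ± 14.9 (n = 5). When cells with thinned reads of at least 2 of these markers were left out, Notch3, Hey2, Jag1 and Hes1 were again called higher, over 3 lines. That step left out 545 fibroblast-cluster cells and 49 cells of cluster 10. Tek, the highest of these markers in fibroblasts, counted among them, so the cells left out need not hold endothelial material.

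**Figure D2:**
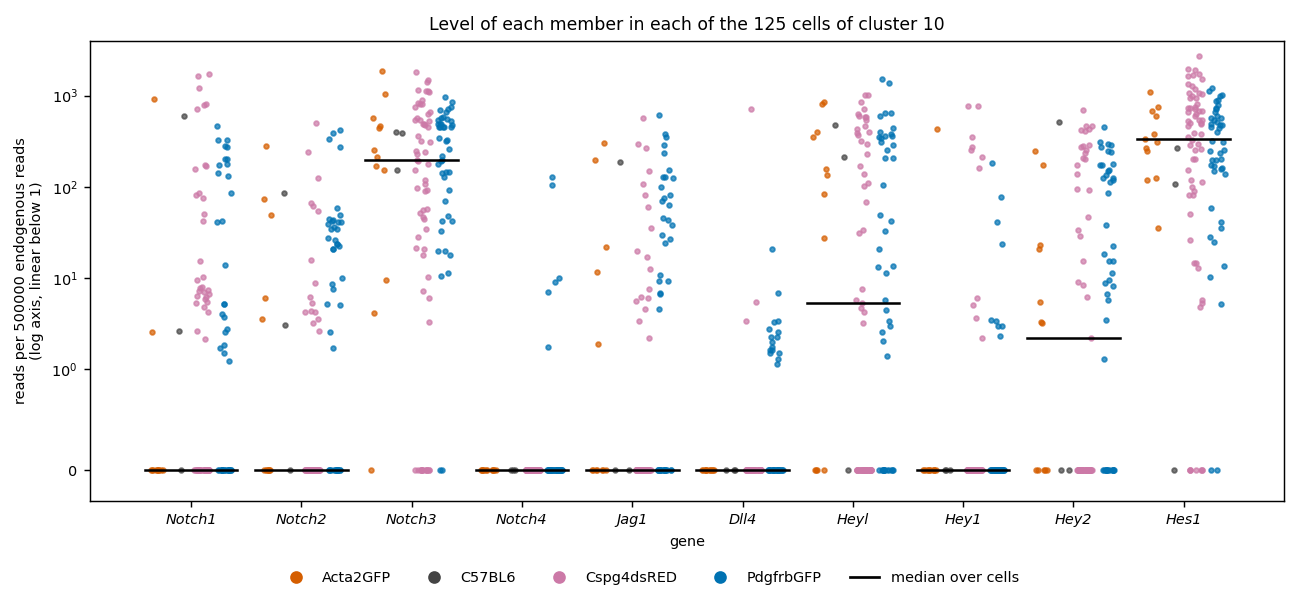
Level of each gene (reads per 500000 endogenous reads, log axis that is linear below 1) in each cell of cluster 10, with points coloured by line and a bar at the median over cells. Medians are above 0 for Notch3, Heyl, Hey2 and Hes1, and the single Dll4 point near 713 is the cell described in the text.

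Of the member targets Heyl, Hey1, Hey2 and Hes1, Hey2, a repressor known from arteries and the heart, differed most. Its cluster 10 level was 39.8 in Acta2GFP, 171.2 in C57BL6, 80.9 in Cspg4dsRED and 84.3 in PdgfrbGFP, against 0.0818 to 3.11 in the fibroblasts of the 5 lines. The lowest cluster 10 line was above the highest fibroblast group, the 19 C57BL6 cells of cluster 6 at 18.4, whose level came from 1 cell at 349.5 with thinned reads of 6 endothelial markers. The log2 fold change was 6.99 ± 1.26 (SE, edgeR adjusted p = 0.00136) and was called under all 12 alternatives, from 6.14 to 7.92. Hey2 was read in 44.8% of thinned cluster 10 cells (35.9% to 53.95%) and in 2.15% of fibroblasts (1.45% to 3.08%).

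Hes1 was the most widely read of the 10 genes. Its cluster 10 level was 412.5 in Acta2GFP, 125.1 in C57BL6, 575.4 in Cspg4dsRED and 391.4 in PdgfrbGFP, and fibroblasts measured 47.8 in PdgfraGFP, 54.7 in Acta2GFP, 58.97 in C57BL6, 71.5 in PdgfrbGFP and 125.4 in Cspg4dsRED. Cluster 10 was higher in each of the 4 lines, although its C57BL6 value lay just under that of the Cspg4dsRED fibroblasts. The log2 fold change was 2.09 ± 0.52 (SE, edgeR adjusted p = 0.0191), just above the fold threshold. The call was lost under 6 of the 12 alternatives. Its p alone missed without Cspg4dsRED (adjusted p = 0.108) and without fibroblast cells beside cluster 10 wells (0.190), and its fold alone missed without the low-count filter (log2 fold change 1.92) and with thinned cells (1.87). Both missed without Acta2GFP (1.85, adjusted p = 0.0625) and without PdgfrbGFP (1.92, 0.131). A thinned Hes1 read was found in 88.8% of cluster 10 cells (81.9% to 93.7%) and 65.7% of fibroblasts (63.1% to 68.3%).

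Heyl, a further Hey-family repressor, was high in cluster 10 and in several fibroblast clusters. It was at 234.8 in Acta2GFP, 231.02 in C57BL6, 155.6 in Cspg4dsRED and 199.7 in PdgfrbGFP cells of cluster 10, against 29.5 to 59.9 in the fibroblasts of the 5 lines. The lines did not overlap, and the log2 fold change, 1.96 ± 0.59 (SE, edgeR adjusted p = 0.0523), missed both thresholds. It passed under 5 alternatives, among them the fit without C57BL6 (adjusted p = 0.0167). Without one of the other lines the adjusted p was 0.150 to 0.240, and it was 0.952 without fibroblast cells beside cluster 10 wells.

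Hey1 was higher in 3 of 4 lines, at 35.9 in Acta2GFP, 0 in the 3 C57BL6 cells, 43.1 in Cspg4dsRED and 7.52 in PdgfrbGFP. Fibroblast levels ran from 0.218 to 2.39. The log2 fold change was 2.38 ± 1.77 (SE, edgeR adjusted p = 0.505), and 72.6% of the cluster 10 level lay in 5 cells. Scaled by exon length, target levels in cluster 10 per kilobase and 1000000 endogenous reads were 369.3 ± 183.05 for Hes1, 80.3 ± 14.3 for Heyl, 40.95 ± 24.1 for Hey2 and 13.25 ± 12.9 for Hey1 (SD, n = 4 lines).

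**Figure D3:**
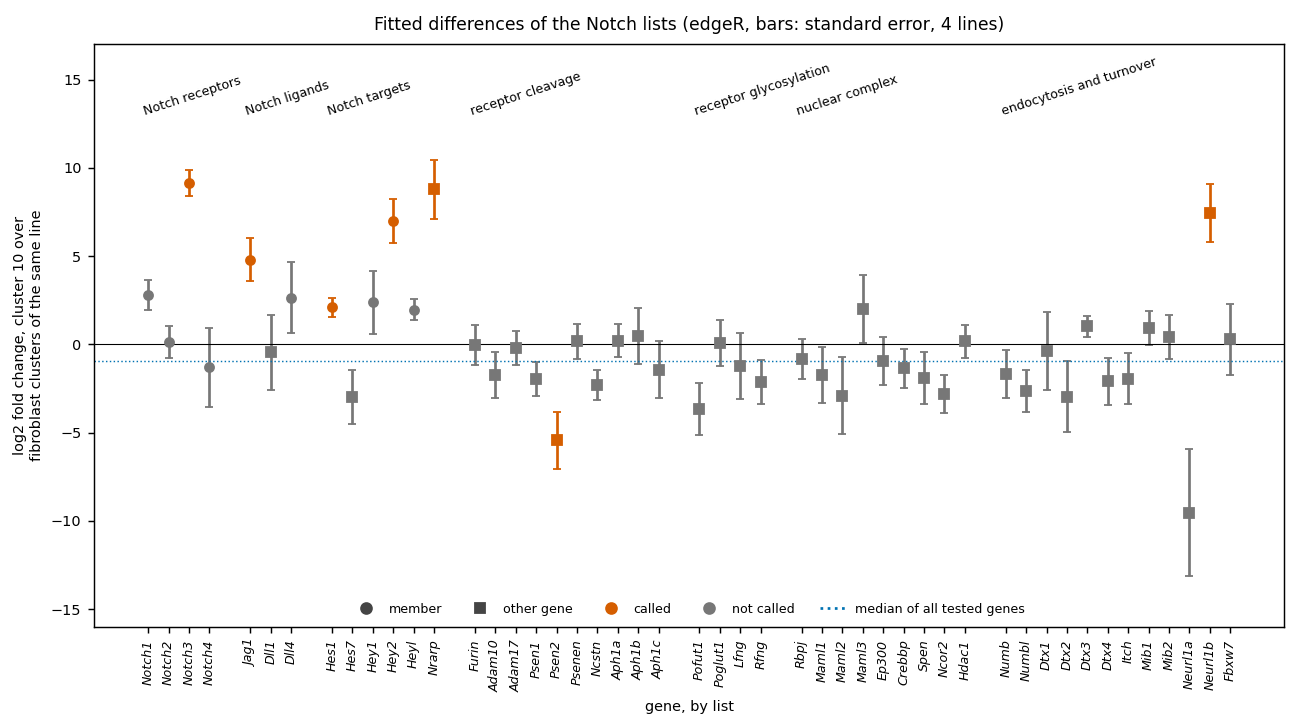
Log2 fold change of cluster 10 over the fibroblast clusters of the same line (edgeR, 4 lines, bars are standard errors) for the genes of 7 Notch lists that passed the filter, with members as circles, other genes as squares and called genes in orange. Notch3, Jag1, Hey2, Hes1, Nrarp and Neurl1b are called above 0 and Psen2 below, and the dotted line is the median of all tested genes at -0.93.

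Of 42 further genes in the 7 lists of the pathway (receptors, ligands, targets, receptor cleavage, receptor glycosylation, nuclear complex, endocytosis and turnover), 38 passed the filter, 2 were called higher and 1 lower, against 2.17% higher and 4.02% lower over all genes tested, so the count is near that of all genes. Their median log2 fold change was -1.29. Nrarp, a target that limits Notch signalling by acting on the intracellular domain, was at 88.6 in Acta2GFP, 0 in C57BL6, 110.6 in Cspg4dsRED and 46.9 in PdgfrbGFP cells of cluster 10. In fibroblasts it stayed between 0.0203 and 0.123 in the 5 lines, and the log2 fold change was 8.78 ± 1.69 (SE, edgeR adjusted p = 0.00265). The Nrarp call was lost without Cspg4dsRED (adjusted p = 0.0653). Reads of Nrarp were found in 28 of 65 Cspg4dsRED, 19 of 45 PdgfrbGFP, 5 of 12 Acta2GFP and 0 of 3 C57BL6 cells.

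Neurl1b, a ubiquitin ligase that acts on Notch ligands, was at 3.72, 21.9, 22.7 and 20.2 in the Acta2GFP, C57BL6, Cspg4dsRED and PdgfrbGFP cells of cluster 10 and at 0.0403 to 0.461 in fibroblasts. Its log2 fold change was 7.46 ± 1.65 (SE, edgeR adjusted p = 0.00822), and the call was lost without Cspg4dsRED (adjusted p = 0.0667), without PdgfrbGFP (0.0780) and without cells that held endothelial reads (0.139, at a log2 fold change of 6.39). Psen2, a catalytic subunit of gamma-secretase, was lower, at 0, 2.93, 0.670 and 13.1 in the same order against 27.4 to 62.9 in fibroblasts (log2 fold change -5.44 ± 1.60, SE, edgeR adjusted p = 0.0481). That call was lost without Acta2GFP (0.158), C57BL6 (0.0956) or Cspg4dsRED (0.247), without cells that held endothelial reads (0.127), and with the median gene set to 0 (0.123). Rbpj itself was at 14.4 ± 10.8 in cluster 10 (SD, n = 4) and 17.8 ± 7.2 in fibroblasts (n = 5). The ligands Jag2 and Dll3 and the target Hes5 were at 0.469 or less in both classes and were not tested. The highest of the further genes was Dtx3 in cluster 10, at 178.2 ± 97.7, and the gamma-secretase subunit Ncstn in fibroblasts, at 130.4 (112.3 to 147.8 over the 5 lines).

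Among the fibroblast clusters the question was which of these genes varied. Heyl was the only member called (edgeR F-test over 10 clusters, adjusted p = 0.00557), where 6.01% of the 15237 genes tested were called. Its fitted levels spanned 7.51 on the log2 scale from the lowest cluster, 5, to the highest, 9. The call was lost without C57BL6 (adjusted p = 0.0819), without PdgfraGFP (0.0531) and without cells that held endothelial reads (0.0889), where the span was 6.93. Mean Heyl levels were 136.8 ± 87.9 in cluster 6 (SD, n = 5 lines), 102.4 ± 64.4 in cluster 9 (n = 2), 97.6 ± 74.5 in cluster 3 (n = 4) and 56.7 ± 68.7 in cluster 11 (n = 3). They were 31.9 ± 21.8 in cluster 8 and 22.6 ± 30.1 in cluster 4, and 10.6 or less in clusters 1, 2, 5 and 7.

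The Heyl means of clusters 3 and 6 came from a minority of strongly read cells. In cluster 6 a level of 100 or more was found in 59 cells (31.4%), in cluster 3 in 81 (23.5%) and in cluster 10 in 47 (37.6%). In cluster 7 it was found in 2 cells, and in cluster 5 the highest of 76 cells was at 11.1. Of the other members, Dll4 did not pass the filter, and the adjusted p of the remaining 8 ran from 0.0573 for Hey2 to 0.8291 for Notch2. Hey2 passed under 3 alternatives, although its highest fibroblast cluster by mean level was cluster 6, at 3.81 ± 8.16 (n = 5). Of the further pathway genes Lfng, a fringe glycosyltransferase that modifies the receptors, and Neurl1b were called (edgeR adjusted p = 0.0335 and 0.0279). Lfng was highest in cluster 8, with 62.999 in PdgfraGFP, where 1 cell reached 1157, and 0 to 7.43 in the other 4 lines. The Lfng call was lost under 6 of 12 alternatives, without Acta2GFP (adjusted p = 0.143), C57BL6 (0.0796), PdgfraGFP (0.149) or PdgfrbGFP (0.151), with DESeq2 (0.172) and away from cluster 10 wells (0.288). That of Neurl1b was lost under 4 of 9, without Cspg4dsRED (0.0646) or PdgfrbGFP (0.766), with sums per plate and line (0.579) and without cells that held endothelial reads (0.483).

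Cluster 5 had the highest fitted Tnc level and the lowest Cd34 level of the fibroblast clusters, 2 genes by which the study tells fibroblasts beneath the bladder epithelium from deeper ones, and was compared with the other fibroblast clusters in 4 lines. Heyl was the 1 member called, and it was lower, where 0.465% of the 16145 genes tested were called lower. Of all calls of that comparison 39.02% were higher, and 70.9% with the median gene set to 0. Its cluster 5 levels were 0 in Cspg4dsRED, 0.422 in PdgfraGFP, 1.53 in C57BL6 and 2.45 in PdgfrbGFP, against 29.5 to 65.04 in the 5 lines of the other fibroblast clusters. All 4 lines were lower, and the fitted log2 fold change was -6.33 ± 1.13 (SE, edgeR adjusted p = 0.0205). The call was lost without PdgfraGFP (adjusted p = 0.138) and with the median gene set to 0 (0.0532).

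No other member passed the threshold, and the Cspg4dsRED values of cluster 5 rest on 3 cells. For Notch1 the log2 fold change was -3.24 (edgeR adjusted p = 0.342). For Hes1 the cluster 5 levels were 1.16 in Cspg4dsRED, 8.50 in PdgfraGFP, 22.4 in PdgfrbGFP and 39.5 in C57BL6, and the log2 fold change was -2.49 ± 0.99 (SE, edgeR adjusted p = 0.291). Hey1 had 4 reads and Hey2 had 3 in the 76 cells, all from PdgfrbGFP. Notch2 was at 46.5 ± 55.5 in cluster 5, with 128.9 in PdgfraGFP, where 1 cell reached 1920. The median log2 fold change was -2.89 over the 10 genes and -0.77 over all genes tested.

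Levels of Hes1 over clusters ran with those of immediate-early genes, which respond within minutes to growth factors and to tissue dissociation. The summed level of 12 such genes was 16314 ± 6639 in cluster 10 (SD, n = 4 lines), 11332 ± 5250 in cluster 4 (n = 2) and 1954 ± 978 in cluster 5 (n = 4). Hes1 was at 376.1 ± 186.4, 292.1 ± 124.2 and 17.9 ± 16.9 in the same clusters, the highest, the next and the lowest of all 11. Some markers of other cell types were higher in cluster 4. Cdh5 was at 18.99 (1.14 over the fibroblast clusters), Emcn at 13.6 (1.39), the epithelial keratin gene Krt19 at 72.1 (8.60) and the glial gene Cdh19 at 64.4 (0.233). Its endothelial, urothelial and glial marker sums were 53.7 ± 44.1, 74.9 ± 102.4 and 76.9 ± 90.9 (SD, n = 2), and the fibroblast markers summed to 8719 ± 2400.4. Many markers stayed under a level of 1, namely 5 of 10 endothelial, 9 of 10 urothelial and 3 of 5 glial genes. Krt19 was the only urothelial gene at 10 or more. The part of other cell types in the cluster 4 values was not tested. Within cluster 10 the 3 C57BL6 cells had the lowest sum, 6920, and the lowest Hes1 level, 125.1, but a Heyl level of 231.02, the next to highest of the 4 lines. Over the 43 groups of line and cluster Pearson's r of the log2 values was 0.71 for Hes1 and 0.65 for Heyl, and over the 39 fibroblast groups 0.62 and 0.60, as descriptions over points that share lines, plates and depth. By rank the order of the 2 genes was reversed. Spearman's rho was 0.55 for Hes1 and 0.63 for Heyl over all groups, and 0.45 and 0.57 over the fibroblast groups. The 3 C57BL6 cells of cluster 11 had a sum of 12269, with Hes1 at only 18.1 and Heyl at 0.282. The part of these genes in the Hes1 and Heyl differences was not tested.

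**Figure D4:**
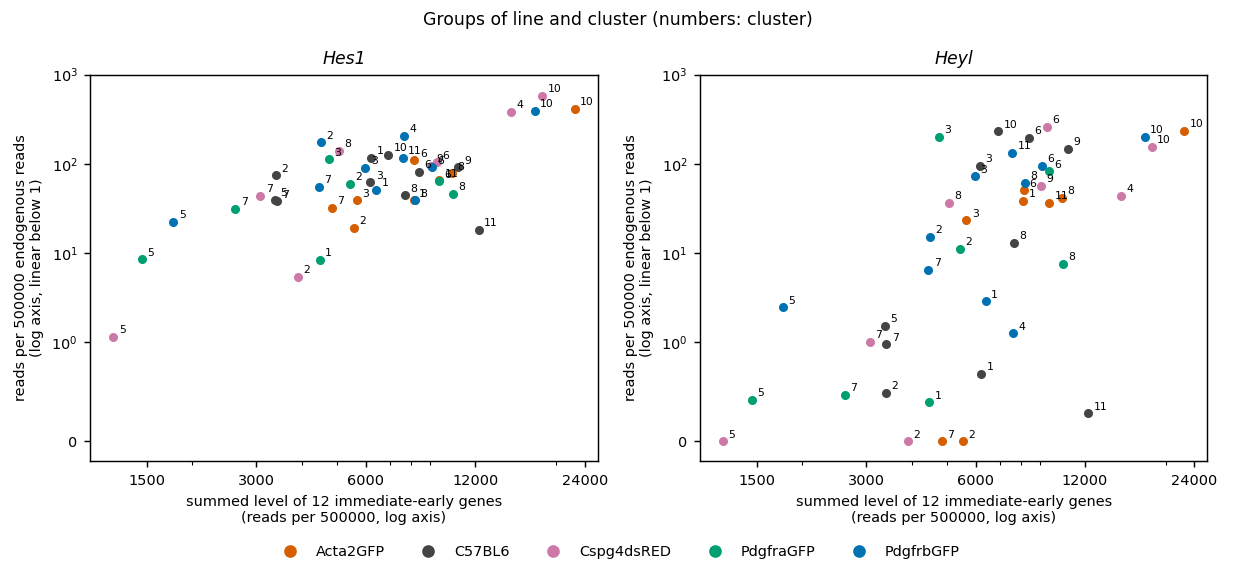
Level of Hes1 (left) and Heyl (right) against the summed level of 12 immediate-early genes (reads per 500000 endogenous reads, log axes, the vertical ones linear below 1) in 43 groups of line and cluster, coloured by line and numbered by cluster. For both genes 3 of the 4 cluster 5 groups lie at the lower left and 3 of the 4 cluster 10 groups at the upper right, and the C57BL6 group of cluster 5 lies low for Heyl (1.53) but in mid-height for Hes1 (39.5), and r over all groups is 0.71 for Hes1 and 0.65 for Heyl.

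The share of fibroblasts with a Notch3 read differed with the position in the plate. Before thinning, a read was found in 14 of the 524 fibroblast cells that shared neither row nor column with a cluster 10 cell (2.67%, 1.47% to 4.44%) and in 19.6% (16.99% to 22.5%) of the 830 that did. The 95% intervals lay apart on bladder_074s (0.837% against 28.7%) and bladder_881s (1.61% against 45%). They overlapped on the other 4 plates, among them bladder_443s (5.30% against 9.09%), and on bladder_352s and bladder_515s the cells away from cluster 10 numbered only 8 and 16. The mean Notch3 level was 0.119 and 0.746 in these cells. The part of the position in the fibroblast values of Notch3 was not tested beyond the fit without such cells. Hey2 reads were found in 3.44% (2.05% to 5.37%) and 7.35% (5.67% to 9.34%) of the same cells, with the same order on bladder_074s, bladder_352s and bladder_881s and the opposite on bladder_443s, bladder_515s and bladder_689s. The Hey2 intervals lay apart on bladder_074s only. Jag1 reads were found in 15.3% and 15.8% of the cells over all plates, but in 12.9% (5.74% to 23.9%) and 37.8% (30.7% to 45.3%) on bladder_881s, the 1 plate on which the Jag1 intervals lay apart. Hey1 had the opposite order, 14.3% (11.4% to 17.6%) away from and 7.47% (5.77% to 9.47%) beside cluster 10 wells, with intervals apart on bladder_074s alone (18.8% against 4.10%). For Hes1 the pooled shares were 85.1% and 80.7% and for Notch2 68.1% and 55.7%, but the plates differ in depth and in the mix of positions. Within plates the share was higher beside cluster 10 wells on 5 of 6 for Hes1 and on 4 of 6 for Notch2, with overlapping intervals on each.

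Dll4 reads in fibroblasts differed by plate, with like shares of 10.9% and 10.8% in the 2 positions. None was found on bladder_074s or bladder_515s, whereas on bladder_881s 37.1% of the cells apart from cluster 10 wells and 38.9% of those beside them had one. The highest Dll4 level of any fibroblast cell was 8.26. Exons of Dll4 overlap the opposite-strand transcript Gm14207, and reads of this pair cannot be told apart either. The source of these reads was not tested. When fibroblast cells that shared a row or column with cluster 10 were left out, the comparison rested on 3 lines, without Acta2GFP. In that fit 2.11% of the genes tested were called, against 6.196% in the main fit. Notch3 (log2 fold change 11.83, edgeR adjusted p = 3.88e-16) and Hey2 were still called, and Jag1 (5.23, adjusted p = 0.493) and Hes1 (2.17, 0.190) were not. The calls of Nrarp (9.32, adjusted p = 0.150), Neurl1b (8.66, 0.341) and Psen2 (-4.20, 0.8096) were lost in that fit as well. Leaving out Acta2GFP alone also lost the Jag1, Hes1 and Psen2 calls. The position of the cells and the loss of that line therefore cannot be told apart in this fit.

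**Figure D5:**
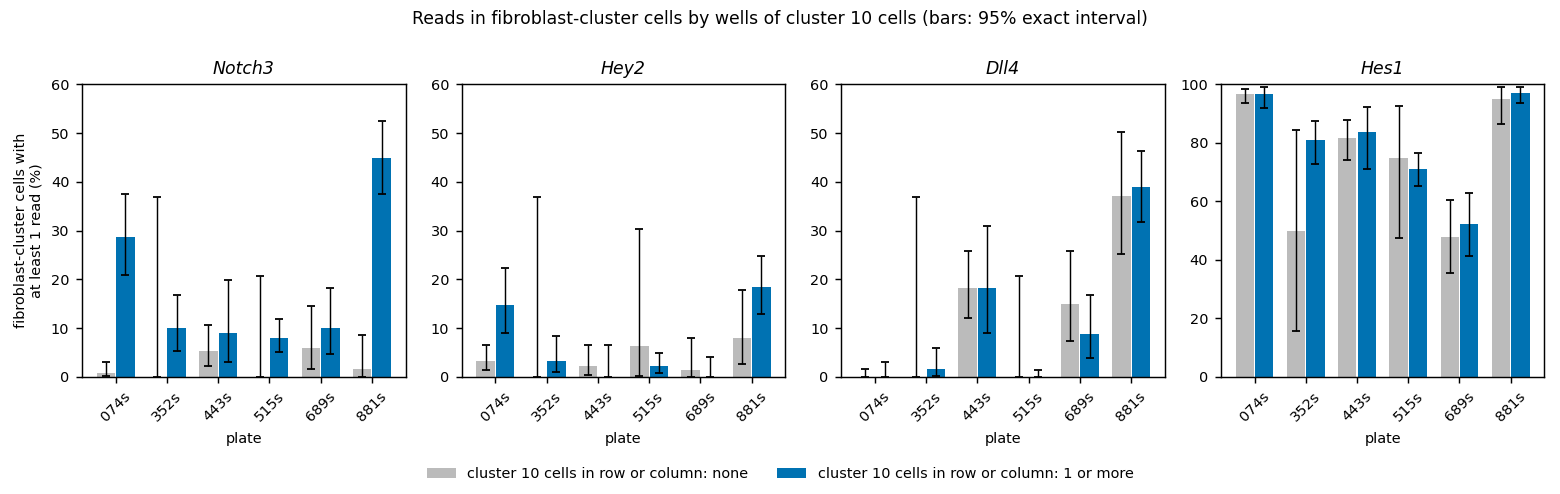
Share of fibroblast-cluster cells with at least 1 read of Notch3, Hey2, Dll4 or Hes1 on each of 6 plates, for cells that share no row or column (grey) or at least 1 (blue) with a cluster 10 cell, with 95% exact intervals. Notch3 is higher in the blue bars on every plate, with intervals that overlap on 4 of them, up to 45% against 1.61% on 881s, and Dll4 is read on 4 of the 6 plates.

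Within cluster 10, the cells with a Notch3 read, 83.2% of the thinned cells, were set beside those without one. Hes1 was read in 89.4% of the cells with Notch3 and 85.7% of those without, Heyl in 55.8% and 33.3%, Hey2 in 46.2% and 38.1%, and Jag1 and Notch1 each in 34.6% and 28.6%. These shares were not tested, and cells without a Notch3 read are few. Of the 42 cells with Jag1, 36 had Notch3, and 16 cells had both Notch1 and Notch2. Levels varied widely between cells, from 0 to 1879 for Notch3 with a median of 198.05 and from 0 to 2745 for Hes1 with a median of 330.7. Hey1 was read in 16 cells, all of which had Hes1. Between the 2 Cspg4dsRED plates, Notch3 was at 338.02 on bladder_352s (49 cells) and 336.1 on bladder_689s (16 cells), while Hes1 was at 682.9 and 246.2 and Heyl at 187.1 and 59.1.

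The genes whose levels ran most like those of each member were sought among 16544 tested genes over the 43 groups of line and cluster, by Pearson's r of log2(level + 1). Nearest to Notch3 were E030013I19Rik (0.97), the cadherin Cdh6 (0.96) and the transporter Slc38a11 (0.96). For Hey2 they were Tinagl1, Itga8 and Gm26714 (0.91 each), and for Jag1 they were Sorbs2 (0.89), Aoc3 (0.88) and Sorbs2os (0.86). Hes1 ran most like the immediate-early genes Nr4a1 (0.80), Zfp36 (0.79) and Junb (0.72), and Heyl like Atp2a3 (0.71), Gadd45b (0.70) and Epn2 (0.69). Values were 0.84 or less for the nearest genes of Hey1 (Cyp7b1, Bik and AF366264), 0.71 or less for those of Notch1 (Ets2, BC003965 and Pde3a) and 0.67 or less for those of Notch2 (Dubr, Fcho2 and Sema5a). Among the members, Notch3 ran most like Hey2 (0.85) and Jag1 (0.77), and Heyl most like Hes1 (0.67). Over the 39 fibroblast groups alone r was -0.11 for Notch3 with Hey2, -0.14 for Notch3 with Jag1 and 0.60 for Heyl with Hes1. The genes nearest to Notch3, Hey2 and Jag1 were others there, led by 4930483K19Rik (0.62), Tmem74b (0.97) and Tspan12 (0.78). Hes1 still ran most like Nr4a1 (0.76) and Zfp36 (0.71). The groups share lines, plates and depth, and r over them is a description. Notch4 and Dll4 were read in under 10% of the thinned cells of every cluster and were not ranked.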

How the data were processed

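Single bladder cells were sorted into plates of 384 wells and sequenced with Smart-seq2 on 6 plates, 1 library per cell. The authors deposited raw read counts per gene and cell in 1 table with 46517 gene rows and 92 spike-in rows. According to the study's methods, reads were mapped to GRCm38 with TopHat2 and counted with featureCounts, and per the labels Bowtie, Bowtie2, Subread and bcl2fastq were also used. The methods name samtools for the removal of doublets and describe further steps against doublets of cells in sorting and in filtering. The strand setting and annotation release of the counting are not given in the sources used here. No molecular identifiers were used, so copies of 1 molecule may be counted repeatedly.

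From the counts, cells were scaled to 500000 endogenous reads for levels, and summed per line and class for tests, with at least 3 cells per sum. Symbols came from GENCODE M21 (46005 rows matched). Tests used edgeR 4.0.16 in R 4.3.3 (TMM scaling, filterByExpr, quasi-likelihood fit) with the line as a block, on the whole table, and Benjamini-Hochberg adjusted p-values. Genes were called at an adjusted p under 0.05 and, in comparisons of 2 classes, a log2 fold change of 2 or more in either direction. Cells were thinned to 50000 endogenous reads (seed 11) before shares of cells were compared, and 6 cells were too shallow for it. Total reads per cell ran from 50276 to 1446059, and intervals on shares are 95% Clopper-Pearson. The fits were also run on counts simulated from the fitted model, which cannot test whether the data follow that model. Alternatives were median-of-ratios scaling, DESeq2 1.42.0, no filter on low counts, sums per plate and line, the median gene at 0 (upper-quartile scaling among clusters), thinned cells, fibroblast cells away from cluster 10 wells, cells without endothelial reads, and leaving out each line. A minimum of 10 cells per line for levels was chosen after seeing the data.

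The rule for named genes took all 10 members, the further genes of the Notch lists that were called (at most 8 per comparison) or had the highest level, and the 3 genes most like each member that was read in at least 10% of the thinned cells of a cluster. The members, the lists and the tests were chosen with earlier results of these data known. Tables were handled with Python 3.11.15 and plotted with matplotlib 3.10.9.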

Additional observations from a re-analysis of the deposited data

Results flagged for a closer look

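In 27 of 80 groups of 4 or 5 lines, 1 line stood apart from the others by Dixon's criterion, which chance alone reaches in about 1 of 20 groups. Most groups hold values near 0, and 16 of the 27 lines were PdgfrbGFP, the line with the most cells. No explanation was tested.

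For the receptors, Notch1 stood apart in C57BL6 cells of cluster 2 (56.7, against 12.9 or less in the other lines) and cluster 5 (16.8) and in PdgfraGFP cells of cluster 8 (23.3). Notch2 did so in PdgfraGFP cells of cluster 5 (128.9), where 1 cell reached 1920. Notch4 did so in C57BL6 cells of cluster 1 (12.5), PdgfraGFP cells of cluster 8 (51.1) and PdgfrbGFP cells of clusters 5 (4.15) and 10 (5.75).

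For the ligands, Jag1 stood apart in PdgfrbGFP cells of clusters 2 (6.95), 5 (3.50) and 6 (3.45) and in C57BL6 cells of cluster 8 (18.4). Dll4 did so in Cspg4dsRED cells of cluster 10 (11.1), through the single cell described above.

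For the targets, Heyl stood apart in Acta2GFP cells of cluster 1 (38.3) and PdgfrbGFP cells of cluster 7 (6.47). Hey1 did so in Acta2GFP cells of cluster 6 (12.8) and in PdgfrbGFP cells of clusters 1 (4.78), 5 (0.104), 7 (1.65) and 8 (5.35). Hey2 did so in C57BL6 cells of cluster 6 (18.4) and in PdgfrbGFP cells of clusters 1 (0.0548), 2 (0.468), 3 (1.75), 5 (0.168), 7 (0.114) and 8 (4.34).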

How the results depend on the processing

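The count of 8 members highest in cluster 10 held under each alternative run for levels. The share of tested genes that was called moved. For cluster 10 it was 6.196%, and it became 18.6% with DESeq2, 15.9% with sums per plate and line, 2.11% without fibroblast cells beside cluster 10 wells, and 2.88% (without Cspg4dsRED) to 5.79% (without C57BL6) when a line was left out. For cluster 5 it was 0.762%, and it became 8.68% with DESeq2, 0.697% without the filter, where more genes were tested and over 1.5 times as many were called, 3.001% with sums per plate and line, 2.23% with thinned cells, and 0.559% (without PdgfraGFP) to 1.31% (without Cspg4dsRED) when a line was left out. Among the fibroblast clusters it was 6.01%, and it became 9.06% with DESeq2, 9.97% with sums per plate and line, 1.995% away from cluster 10 wells (7 clusters and 20 sums), 2.34% without cells with endothelial reads, and 1.12% (without PdgfrbGFP) to 4.79% (without Cspg4dsRED) when a line was left out. The cause of these moves was not tested.

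Signs turned only for genes that were not called. For cluster 10, Notch2 had a log2 fold change of -0.0356 without the filter, -0.17 with sums per plate and line, -0.24 with thinned cells and -0.0477 to 0.29 without a line, and Notch4 -0.88 to 0.48 without Acta2GFP and without Cspg4dsRED. For cluster 5, Notch2 was at 0.56 with the median gene at 0 and -0.85 to 0.30 without a line, Notch3 at -0.17 to 1.51 without a line, and Dll4 at 0.0771 with median-of-ratios scaling, 0.76 with the median gene at 0 and -0.17 to 0.25 without a line. Of the fits of members and called list genes under alternatives, 37 lost a call, 16 gained one and 13 turned sign, and the others kept sign and side of the threshold. With lines of at least 10 cells, chosen after seeing the data, 5 of 110 levels moved by more than 1 SD.

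By replicate number no paired analysis was possible because these numbers only count the cells of a cluster in accession order. Classes were instead compared within lines, with the line as a block, or the plate and line where sums were made per plate. Few lines (4 in a comparison of 2 classes), unknown animals and read counts without molecular identifiers limit every value. Notch4 and Dll4 rest on few cells.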
